A study of Homo sapiens with 4 samples.

Results

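The genes described here encode the folding, quality control and degradation machinery of the endoplasmic reticulum (ER), together with the sensors and transcription factors of the ATF6 and IRE1 arms of the unfolded protein response. A list of 40 genes was named, and a gene was kept when it had 10 or more counts in 2 or more libraries, which left 39 of 40, among 14122 of 20263 genes that met the same rule. DERL3, a derlin of the degradation channel, was not kept: it had 4 counts in DMSO replicate 2 and 0 in the other libraries. A count of 0 allows up to 0.169 to 0.205 CPM (counts scaled to a common library size and composition) in these libraries, taking 6 counts as the floor and covering counting error only. RNA came from HCT116 cells, a human colorectal carcinoma line labelled wild type, given either HJ-23 at 30 µM for 24 hours or the solvent DMSO at 0.1% for 24 hours, with 2 libraries in each group. The submitters call HJ-23 a piperine derivative, and the treatment field of its libraries reads HJ-25 where their titles read HJ-23, and the titles were followed. The labels do not say if libraries are from separate cultures, so each p-value reflects only how far these libraries differ, and that spread may be technical. Total counts ran from 29769568 to 34831207 per library. For HJ-23 replicate 1, a chi-square of gene counts, per degree of freedom, was 57.4 and 66.8 against DMSO replicates 1 and 2. It was 70.7 against HJ-23 replicate 2. This chi-square also grows with library depth, and the HJ-23 libraries were the deepest, so it does not rank how alike the libraries are.

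When unfolded proteins build up in the ER lumen, the chaperone BiP is drawn away from the membrane sensors ATF6, IRE1 and PERK. ATF6 is then cut in the Golgi and its freed cytosolic part enters the nucleus, IRE1 splices the XBP1 transcript, and PERK phosphorylates eIF2-alpha, which favours translation of ATF4. ATF6 and spliced XBP1 bind ER stress elements in the promoters of chaperone and degradation genes, and ATF4 acts mostly on amino acid metabolism and stress genes. Secretory epithelia of the intestine depend on the IRE1 and XBP1 arm. Gene counts measure neither XBP1 splicing nor ATF6 cleavage, so these steps were not analysed here.

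As a group the 39 genes were at almost the same level with and without HJ-23. Summed, they reached 13772 and 13566 CPM in the DMSO libraries and 13641 and 14258 CPM in the HJ-23 libraries (replicate 1 first here and wherever a pair of values is given). One HJ-23 library lay between the DMSO libraries and the other above both (log2 ratio of the means 0.03), and with 2 libraries against 2 an exact permutation test cannot go below p = 0.333. None of the 39 passed edgeR's quasi-likelihood test at an adjusted p below 0.05 over 14062 genes, where 0.0569% of all genes were called higher and 0.0284% lower. DESeq2 called 0 of the 39 as well, against 1.14% of all genes higher and 1.07% lower. At an unadjusted p below 0.05, 3 were higher (HYOU1, SEC61A1 and CRELD2) and 1 was lower (UGGT1), against 6.77% and 5.25% of all genes. The median log2 fold change, HJ-23 over DMSO, was 0.04, with 22 of 39 positive, and over all genes it was 0.0086, with 7178 of 14062 positive. In these bulk libraries, fewer cells with a transcript and less of it per cell cannot be told apart.

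Most of the 39 had a narrow 95% interval, which reflects only the spread between these libraries. In 37 of the 39 genes the 95% interval of the fold change lay within 2-fold in both directions, which was true of 72.6% of all genes tested. In 23 of the 39 it lay within 1.5-fold, against 28.5% of all genes. The exceptions at 2-fold were SDF2L1 and CREB3L2, whose libraries differed most within a group. Every one of the 39 had at least 834 counts in each library, and the highest count was 113333, for HSPA5. The genes tested as a whole reach far lower levels, such as NUPR1 at 0.354 and 0.273 CPM in DMSO. Shares among genes of like level were not computed.

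**Figure D1:**
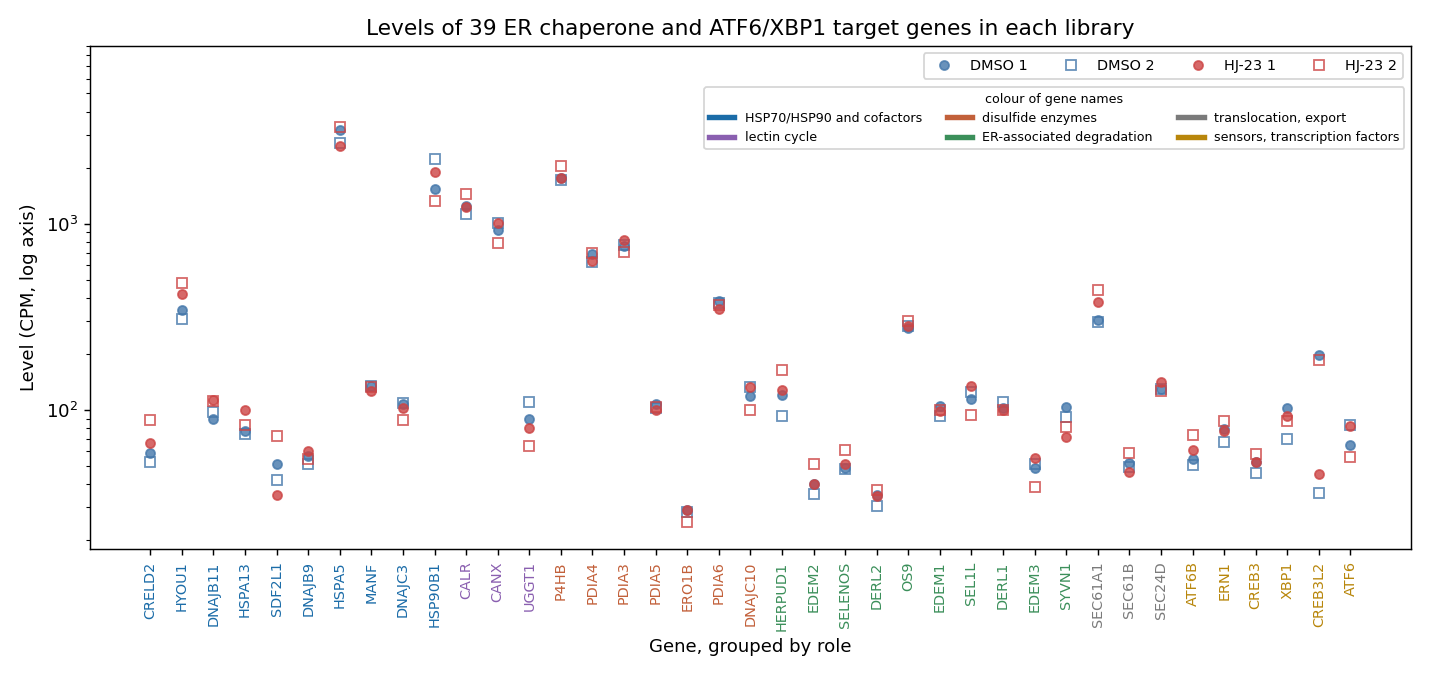
Level of each of the 39 genes (CPM, log axis) in the 4 libraries, with DMSO in blue and HJ-23 in red, replicate 1 as filled circles and replicate 2 as open squares, and gene names coloured by role. Most genes show 4 nearly coincident points, while CREB3L2 splits into a pair near 35.7 to 45.3 CPM and a pair near 184.7 to 197.7 CPM, each with 1 library of either group.

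An ER stress element of either form described below was found in the promoters of 11 of the 36 genes with a promoter window. Of these 11, 3 (CRELD2, HYOU1 and HERPUD1) had both HJ-23 libraries above both DMSO libraries and 1 (PDIA6) had both below. Over all genes tested the shares were 24.8% and 21.2%. CRELD2, HYOU1 and HERPUD1 are shown with HSP90B1, the lowest of the 11 in fold change, and HSPA5. The 5 promoters were chosen to span the range of fold changes. Each is a RefSeq window on GRCh38.p14 running from 250 bases before the gene's start to 50 after, read 5′ to 3′ on the gene's strand. They lie at chr9:125241294-125241593 (minus strand), chr12:103930160-103930459 (plus strand), chr22:49918384-49918683 (plus strand), chr11:119057156-119057455 (minus strand) and chr16:56931892-56932191 (plus strand). Capitals mark exact matches on either strand to the ER stress element (ERSE, CCAAT and CCACG with 9 bases between them), to ERSE-II (ATTGG and CCACG with 1 base between them), and to 1 form of the ATF4 composite element (TTGCATCA).
HSPA5: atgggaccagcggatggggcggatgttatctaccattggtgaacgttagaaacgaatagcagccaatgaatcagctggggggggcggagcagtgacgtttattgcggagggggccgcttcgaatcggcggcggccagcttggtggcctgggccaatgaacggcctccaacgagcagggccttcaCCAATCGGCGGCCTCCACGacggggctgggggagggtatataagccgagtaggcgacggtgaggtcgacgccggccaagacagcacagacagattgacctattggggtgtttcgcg
HSP90B1: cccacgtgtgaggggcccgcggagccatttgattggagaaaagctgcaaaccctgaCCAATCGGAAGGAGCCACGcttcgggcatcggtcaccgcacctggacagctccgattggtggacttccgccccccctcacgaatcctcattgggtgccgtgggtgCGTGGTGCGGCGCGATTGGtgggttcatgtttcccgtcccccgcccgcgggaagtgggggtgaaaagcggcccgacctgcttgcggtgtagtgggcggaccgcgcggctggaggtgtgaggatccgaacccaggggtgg
CRELD2: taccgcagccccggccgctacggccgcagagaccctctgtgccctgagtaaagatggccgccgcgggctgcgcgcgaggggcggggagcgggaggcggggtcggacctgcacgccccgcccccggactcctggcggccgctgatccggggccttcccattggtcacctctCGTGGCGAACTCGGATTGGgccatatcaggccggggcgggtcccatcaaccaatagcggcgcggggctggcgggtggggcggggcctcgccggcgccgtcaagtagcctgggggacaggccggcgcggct
HYOU1: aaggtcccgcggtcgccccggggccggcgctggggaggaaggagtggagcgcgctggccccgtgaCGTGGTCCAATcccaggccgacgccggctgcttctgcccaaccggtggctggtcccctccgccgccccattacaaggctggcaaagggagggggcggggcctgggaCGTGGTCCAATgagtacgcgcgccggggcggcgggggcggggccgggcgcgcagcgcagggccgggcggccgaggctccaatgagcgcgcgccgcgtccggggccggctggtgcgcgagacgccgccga
HERPUD1: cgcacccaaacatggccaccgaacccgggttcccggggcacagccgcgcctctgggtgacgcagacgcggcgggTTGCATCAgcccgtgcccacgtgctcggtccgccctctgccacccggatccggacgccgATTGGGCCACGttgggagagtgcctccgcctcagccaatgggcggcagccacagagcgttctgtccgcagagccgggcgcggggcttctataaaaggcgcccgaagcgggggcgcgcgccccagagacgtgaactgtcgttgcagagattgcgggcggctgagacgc
HSPA5 held 1 exact ERSE, starting 66 bases before the gene's start, and HSP90B1 held 2, of opposite orientation, at 194 and 89 bases. CRELD2 held 1 ERSE on the opposite strand at 80 bases. HYOU1 held 2 copies of ERSE-II on the opposite strand, at 185 and 79 bases, the first overlapping a match to the XBP1-type element TGACGTGG. HERPUD1 held ERSE-II at 117 bases and the ATF4 composite element at 176 bases, and it was the only one of the 36 genes with a promoter window in which that composite was found.

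Windows were found for 36 of the 40 genes. An exact ERSE stood in 8 of these 36 (22.2%), against 0.0916% of all 27305 genes with a window, and ERSE-II in 3 (8.33%), against 0.0696%. The 11 genes with either element were HSPA5, HSP90B1, CALR, CANX, PDIA6, ERO1B, XBP1, CRELD2, HYOU1, HERPUD1 and SDF2L1, against 44 genes in all. TGACGTGG stood in 2 of the 36 (5.56%, against 0.927% of genes), DNAJC10 and HYOU1. The short core CCACG, which is also part of ERSE, ERSE-II and TGACGTGG, stood in 27 (75%, against 42.1%). TTGCATCA was in 1.08% of all genes. A match is a description of these letters and not a bound site, and the genes were listed because they belong to this pathway. The 11 genes with ERSE or ERSE-II had log2 fold changes from -0.23 to 0.48 with a median of 0.05, and the 25 with neither had them from -0.47 to 0.45 with a median of 0.06. The 3 genes with ERSE-II had 0.45 (HYOU1, standard error 0.15), 0.46 (HERPUD1, 0.20) and 0.20 (SDF2L1, 0.34, with overlapping groups). The 8 with ERSE ran from -0.23 to 0.48 with a median of -0.04. The difference between these sets was not tested, and none of the 11 genes passed the adjusted test.

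Among the HSP70 and HSP90 chaperones and their cofactors, the groups overlapped in the main chaperone, while HYOU1, CRELD2, DNAJB11 and HSPA13 were higher in both treated libraries and DNAJC3 and MANF were lower in both. These 4 and 2 of 10 genes stand against 24.8% and 21.2% of all genes. HSPA5 (BiP, ENSG00000044574), the ER HSP70 that also holds the stress sensors inactive, was at 3182 and 2696 CPM in DMSO and at 2628 and 3293 CPM in HJ-23. The highest and the lowest library were both HJ-23 libraries, so the groups overlapped, and the log2 fold change was 0.01 (standard error 0.18, edgeR adjusted p = 0.985). Its 95% interval ran from 0.746-fold to 1.36-fold. Per transcript length, HSPA5 had the highest group means of the 39, at 1647 ± 205 TPM in DMSO and 1702 ± 184 TPM in HJ-23 (counts scaled for transcript length and library size, mean ± SD, n = 2). It was not the highest in every library. HSP90B1 exceeded it in DMSO replicate 2 (1700 against 1503 TPM), and P4HB did in HJ-23 replicate 1 (1580 against 1571 TPM).

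HSP90B1 (GRP94, ENSG00000166598), the ER HSP90, was at 1540 and 2231 CPM in DMSO and at 1885 and 1321 CPM in HJ-23. Its groups overlapped and the log2 fold change was -0.23 (standard error 0.25, edgeR adjusted p = 0.726). Without DMSO replicate 2 the log2 fold change was 0.03, and without HJ-23 replicate 1 it was -0.53. Reads of HSP90B1 may be shared with its processed pseudogenes, and the sources do not say how the counting treated them.

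HYOU1 (GRP170, ENSG00000149428), the large HSP70 that exchanges nucleotide on BiP, was at 346 and 309 CPM in DMSO and at 417 and 478 CPM in HJ-23. Both treated libraries lay above both controls, with a log2 fold change of 0.45 (standard error 0.15, unadjusted p = 0.0218, edgeR adjusted p = 0.355). CRELD2 (ENSG00000184164), a secreted ER stress protein with disulfide isomerase activity, was at 58.9 and 52.3 CPM in DMSO and at 66.2 and 88.5 CPM in HJ-23. It did not overlap between groups and had the highest log2 fold change of the 39, 0.48 (standard error 0.19, unadjusted p = 0.0456, edgeR adjusted p = 0.405). Without HJ-23 replicate 2 that value was 0.23.

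SDF2L1 (ENSG00000128228), a cofactor of BiP and its J-proteins and an early ATF6 target, differed most between the treated libraries in this role. It was at 51.3 and 42.2 CPM in DMSO and at 35.2 and 72.4 CPM in HJ-23, so 1 treated library was the lowest of the 4 and the other the highest. Its log2 fold change was 0.20 (standard error 0.34), or 0.61 with the first and -0.43 with the second HJ-23 library left out. SDF2L1 also had the highest transcript GC content of the 39, 65.5%. DNAJB9 (ERdj4, ENSG00000128590), a J-protein induced through XBP1 that binds IRE1, was at 56.8 and 51.2 CPM in DMSO and at 60.0 and 54.3 CPM in HJ-23, with overlapping groups and a log2 fold change of 0.08 (standard error 0.15). The other J-proteins were DNAJB11 (ERdj3), with a log2 fold change of 0.27 and no overlap, and DNAJC3 (p58IPK), with -0.18 and both treated libraries below both controls. HSPA13, a microsomal HSP70 relative, had 0.27 with both treated libraries above both controls, and MANF, a secreted ER stress factor that binds BiP, had -0.06. Of the 10 genes in this role, 7 had positive log2 fold changes and the median was 0.14.

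In the lectin cycle, which holds N-glycosylated proteins until they fold, the groups overlapped in both chaperones, and the folding sensor was lower in both treated libraries without passing the adjusted test. UGGT1 (ENSG00000136731), the glucosyltransferase that recognises misfolded glycoproteins, was at 89.1 and 110.4 CPM in DMSO and at 79.7 and 64.4 CPM in HJ-23. Both treated libraries lay below both controls, and its log2 fold change of -0.47 (standard error 0.18, unadjusted p = 0.0423, edgeR adjusted p = 0.402) was the lowest of the 39. With the correction for GC content and length described further on, it was -0.17. CALR (calreticulin) was at 1246 and 1121 CPM in DMSO and at 1231 and 1448 CPM in HJ-23, and the log2 fold change was 0.18. CANX (calnexin, its membrane-bound relative) was at 920 and 1004 CPM in DMSO and at 1012 and 784 CPM in HJ-23, and the log2 fold change was -0.10. In both the groups overlapped.

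The 7 disulfide enzymes had log2 fold changes from -0.11 (DNAJC10) to 0.13 (P4HB) and a median of -0.05. PDIA4 (ERp72, ENSG00000155660), an isomerase with several thioredoxin-like domains, was at 683.7 and 620.9 CPM in DMSO and at 626.9 and 694.3 CPM in HJ-23, giving a log2 fold change of 0.02 (standard error 0.14). Its 95% interval was 0.799-fold to 1.28-fold. P4HB, the main protein disulfide isomerase, was at 1754 and 1715 CPM in DMSO and at 1761 and 2043 CPM in HJ-23. By length its DMSO mean was second to that of HSPA5, at 1459 ± 33.8 TPM, and close to that of HSP90B1, at 1443 ± 364 TPM. PDIA6 was the only one of the 7 with both treated libraries below both controls, at 386 and 376 CPM in DMSO and 348 and 368 CPM in HJ-23. PDIA3, which works with calnexin and calreticulin, PDIA5, and the oxidase ERO1B, which recharges the isomerases, had log2 fold changes of -0.01, -0.05 and -0.09. DNAJC10 (ERdj5), a reductase that opens disulfides before degradation, was at 119 and 132 CPM in DMSO and at 132 and 99.6 CPM in HJ-23.

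ER-associated degradation showed its ATF6- and ATF4-responsive adaptor higher and its ubiquitin ligase lower, neither past the test. HERPUD1 (ENSG00000051108), which organises the ligase complex, was at 119.8 and 92.5 CPM in DMSO and at 128.6 and 164.1 CPM in HJ-23. The groups did not overlap, and the log2 fold change was 0.46 (standard error 0.20, unadjusted p = 0.0566, edgeR adjusted p = 0.4297). Leaving out single libraries moved it between 0.25 (without HJ-23 replicate 2) and 0.66 (without DMSO replicate 1). SYVN1 (HRD1, ENSG00000162298), the ubiquitin ligase at the centre of the complex, was at 104.3 and 91.3 CPM in DMSO and at 72.0 and 80.8 CPM in HJ-23. Both treated libraries lay below both controls, with a log2 fold change of -0.36 (standard error 0.15, unadjusted p = 0.0564, edgeR adjusted p = 0.4297), or -0.54 with the GC and length correction.

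The remaining degradation genes had smaller fold changes than HERPUD1 and SYVN1. SEL1L, which anchors SYVN1 to substrate receptors, was at 115 and 125 CPM in DMSO and at 134 and 94.2 CPM in HJ-23. EDEM1 (ENSG00000134109), a mannosidase-like lectin that marks glycoproteins for degradation and an XBP1 target, was at 104.9 and 93.2 CPM in DMSO and at 98.5 and 99.6 CPM in HJ-23, and the log2 fold change was -3.6e-05 (standard error 0.14). Its relatives EDEM2 and EDEM3 had log2 fold changes of 0.27 and -0.09 with overlapping groups. The derlins DERL1 and DERL2, which form the exit channel, had -0.09 and 0.12. The lectin OS9 had 0.07, and SELENOS, a selenoprotein that recruits the p97 ATPase, had 0.21 with both treated libraries above both controls. Over the 10 degradation genes kept, 5 were positive and the median was 0.03.

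SEC61A1 (ENSG00000058262), the pore subunit of the translocon, was higher in both treated libraries without passing the adjusted test, while the other genes of translocation and export overlapped between groups. It was at 302.7 and 298.2 CPM in DMSO, which lay close together, and at 378.8 and 443.0 CPM in HJ-23. The log2 fold change was 0.45 (standard error 0.14, unadjusted p = 0.0192, edgeR adjusted p = 0.339), the smallest p of the 39, with an interval from 1.07-fold to 1.74-fold. Its value ran from 0.31 to 0.54 over the 12 fits. Reads may be shared with its paralog SEC61A2. SEC61B, a smaller subunit of the same pore, was at 51.8 and 49.2 CPM in DMSO and at 46.3 and 58.7 CPM in HJ-23. SEC24D, a cargo-binding coat protein of vesicles that leave the ER and an XBP1-linked gene, was at 129.4 and 129.5 CPM in DMSO and at 140.5 and 125.9 CPM in HJ-23. Their log2 fold changes were 0.06 and 0.04.

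Apart from ATF6B, the transcripts of the sensors and transcription factors overlapped between groups. ERN1 (IRE1-alpha, ENSG00000178607), the kinase and nuclease that splices XBP1, was at 78.7 and 66.9 CPM in DMSO and at 76.8 and 87.5 CPM in HJ-23, giving a log2 fold change of 0.17 (standard error 0.16). Without DMSO replicate 2 it was 0.04, and without HJ-23 replicate 2 it was 0.05. XBP1 (ENSG00000100219), itself a target of ATF6, was at 103.1 and 70.1 CPM in DMSO and at 92.4 and 87.4 CPM in HJ-23, so both treated libraries lay between the controls. Its log2 fold change was 0.05 (standard error 0.21), or 0.36 without DMSO replicate 1 and -0.22 without DMSO replicate 2. ATF6 (ENSG00000118217) was at 64.7 and 82.9 CPM in DMSO and at 82.0 and 56.1 CPM in HJ-23, giving a log2 fold change of -0.096 (standard error 0.23). ATF6B, its weaker relative, was at 54.7 and 50.9 CPM in DMSO and at 61.1 and 73.0 CPM in HJ-23. It was the only gene of this role without overlap (log2 fold change 0.35, standard error 0.16, unadjusted p = 0.0755), and the value dropped to 0.19 once HJ-23 replicate 2 was left out. Corrected for GC content and length it was 0.18. CREB3, a membrane-bound factor cut in the Golgi like ATF6, had 0.16 with overlapping groups.

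CREB3L2 (ENSG00000182158), another membrane-bound factor of this kind that acts on secretory pathway genes, split the libraries across the groups. It was at 197.7 CPM in DMSO replicate 1 and 184.7 CPM in HJ-23 replicate 2, and at 35.7 CPM in DMSO replicate 2 and 45.3 CPM in HJ-23 replicate 1. The fitted log2 fold change of -0.02 had a standard error of 1.06 and a 95% interval from -2.90 to 2.86, and it was 1.69 or -0.80 with the first or second DMSO library left out, and 0.64 or -1.39 with the first or second HJ-23 library left out. Of 14062 genes, 10 (0.0711%) were higher by at least 2 on the log2 scale in DMSO replicate 1 than in replicate 2 and in HJ-23 replicate 2 than in replicate 1. CREB3L2 had the highest level of these 10, and TOMM6, a mitochondrial import subunit chosen after its values were seen, was at 47.2 and 1.30 CPM in DMSO and at 1.24 and 52.5 CPM in HJ-23, the same split as in CREB3L2.

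**Figure D2:**
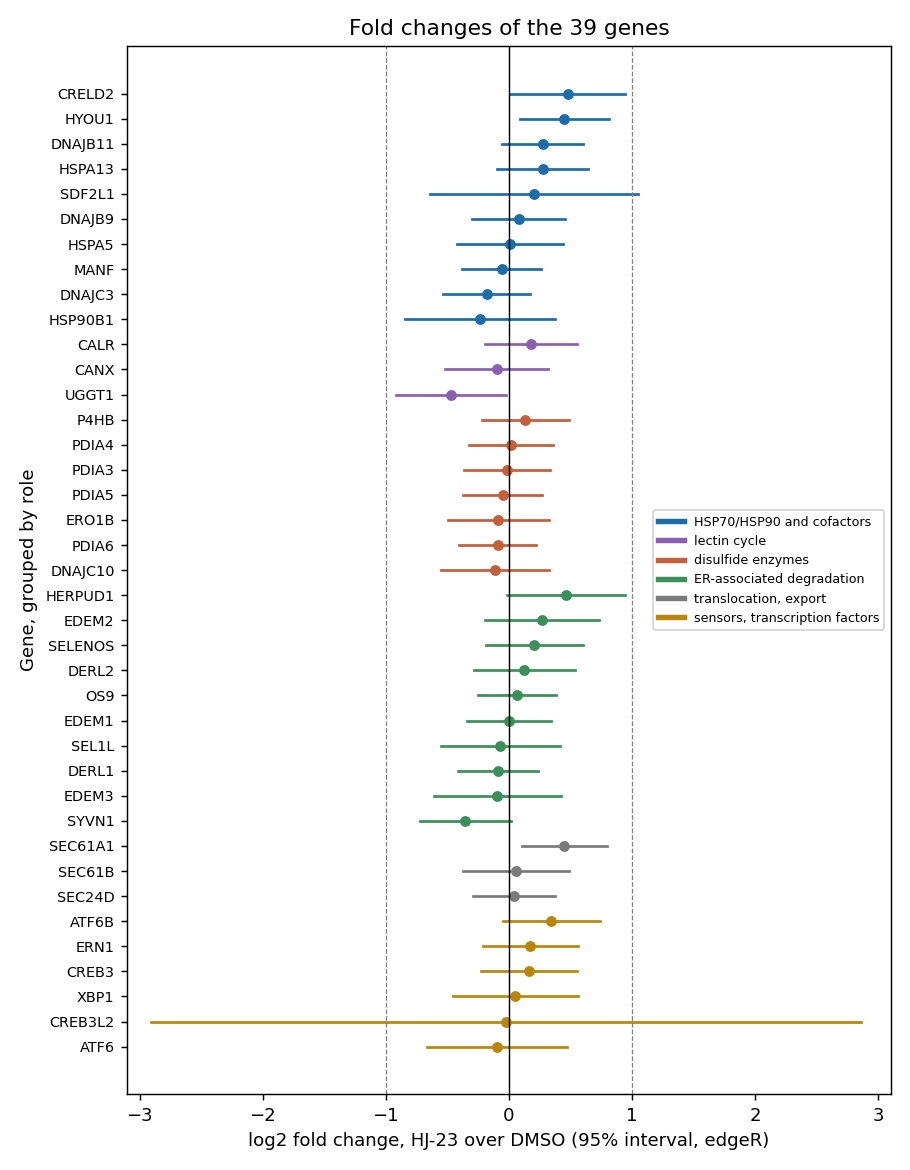
Log2 fold change of HJ-23 over DMSO for each of the 39 genes (x axis), as a point with its 95% interval from edgeR, coloured by role, with dashed lines at 2-fold. All points lie between -0.47 and 0.48, and only the intervals of SDF2L1 and CREB3L2 cross a dashed line.

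Counted by libraries rather than by p, 9 of the 39 genes had both HJ-23 libraries above both DMSO libraries and 6 had both below, against 24.8% and 21.2% of all genes tested. The 9 were CRELD2, HYOU1, DNAJB11, HSPA13, P4HB, HERPUD1, SELENOS, SEC61A1 and ATF6B. The 6 were DNAJC3, MANF, UGGT1, PDIA6, SYVN1 and DERL1. The fold change exceeded both within-group gaps in 10 genes, 7 positive and 3 negative, against 33.4% of all genes.

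The spread within groups followed a shared pattern in these genes. In 34 of the 39 the replicate gaps had opposite signs in the 2 groups, so that DMSO replicate 1 and HJ-23 replicate 2 stood on the same side, which held for 66.3% of all genes. In 22 of them DMSO replicate 1 and HJ-23 replicate 2 were the higher libraries, among them HSPA5, CALR, SDF2L1 and HERPUD1, and in 12 they were the lower, among them HSP90B1, CANX, SEL1L, ATF6 and UGGT1. The first 22 had a median transcript GC content of 53.4% (39.4% to 65.5%) and the other 12 of 42.0% (37.4% to 49.5%). Over all genes the gaps moved with GC content too, with Spearman correlations of 0.35 in DMSO and -0.63 in HJ-23. In the 39 genes these were 0.47 and -0.74. Across the 39 genes the Pearson correlation of the 2 gaps was -0.84, or -0.66 without CREB3L2, and over all genes it was -0.18. All genes include many of far lower level, and genes of like level were not compared. The genes in such a correlation share their libraries, so it is a description with no p. What sets the pattern was not tested.

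**Figure D3:**
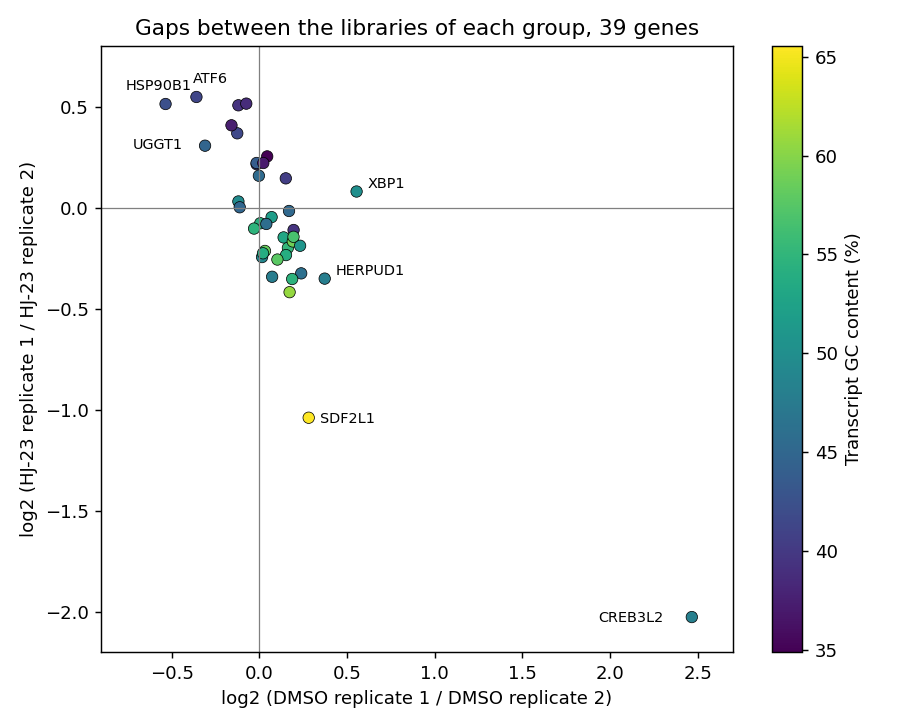
Replicate gap in DMSO (x axis, log2 of replicate 1 over 2) against the gap in HJ-23 (y axis, same scale) for the 39 genes, coloured by transcript GC content. Points run from low-GC genes such as HSP90B1 and ATF6 at upper left to the GC-rich SDF2L1 at lower right. CREB3L2, furthest to the lower right, has a middling GC content of 48.1%.

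GC content also moved with the treatment difference. Across the 39 genes the Spearman correlation of log2 fold change with GC content was 0.51, and over 14047 genes it was 0.38, again as descriptions. HYOU1, CRELD2 and SEC61A1, the genes higher at an unadjusted p below 0.05, had GC contents of 55.2%, 60.7% and 53.8%, and UGGT1 had 44.7%. With each library's trend on GC content and length removed, HYOU1 was at 0.34, CRELD2 at 0.27 and SEC61A1 at 0.34 on the log2 scale. HERPUD1, at 47.9% GC, was at 0.48 there. In that fit 6 of the 39 were higher at an unadjusted p below 0.05 (HSPA13, DNAJB11, DNAJC10, HYOU1, CRELD2 and SEC61A1) and 1 was lower (SYVN1), against 9.31% and 8.41% of all genes, and 0 passed the adjusted threshold, against 0.149% higher and 0.0924% lower. DNAJC10, at 37.4% GC and with the longest transcript of the 39 (20129 bases), turned from -0.11 to 0.41. The parts of GC content and length in that shift were not separated. The sign held in 27 of the 39.

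**Figure D4:**
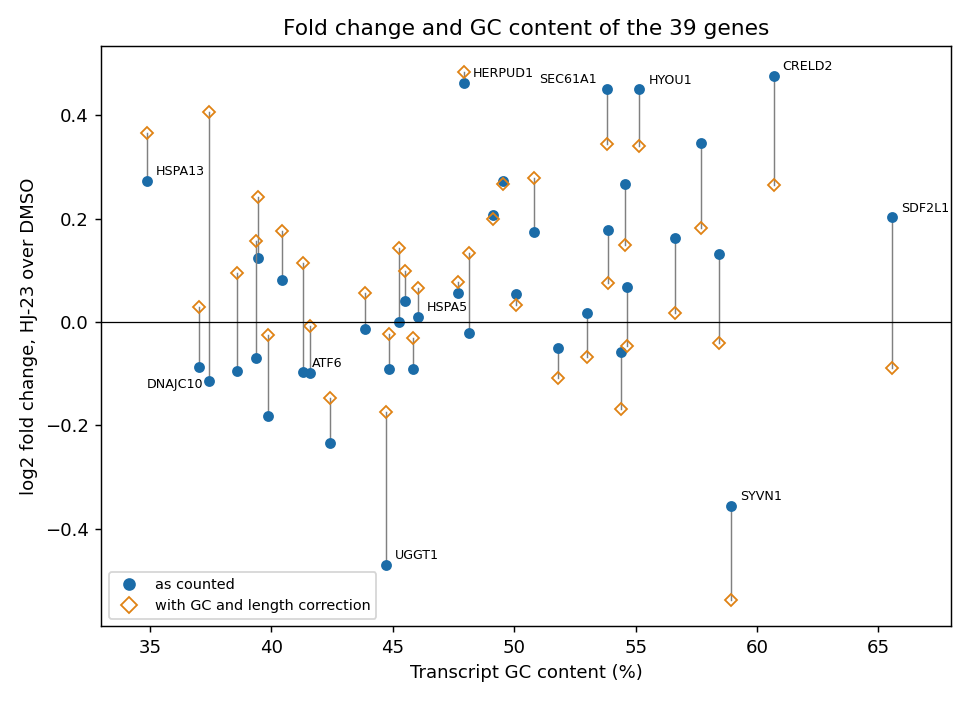
Log2 fold change of HJ-23 over DMSO (y axis) against transcript GC content in percent (x axis) for the 39 genes, as counted (circles) and with the GC and length correction (diamonds), joined per gene. High-GC genes such as CRELD2 and SDF2L1 shift down with the correction, and low-GC genes such as HSPA13 shift up. DNAJC10, low in GC and also the longest, shifts up further, and HERPUD1 stays near 0.46 to 0.48.

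The ATF4 branch, which PERK and other kinases of eIF2-alpha start, is given beside these genes without a test of the difference. Of its 14 listed genes 13 were tested, and 11 had positive log2 fold changes with a median of 0.995. None passed with edgeR at an adjusted p below 0.05, 10 were higher and 0 lower at an unadjusted p below 0.05 (6.77% and 5.25% of all genes), and DESeq2 called 6 higher (1.14% of all genes). In 5 of the 13 the 95% interval lay within 2-fold, against 72.6% of all genes. With the GC and length correction PPP1R15A (1.22, edgeR adjusted p = 0.0185) and ASNS (1.28, edgeR adjusted p = 0.0227) passed, and the other 11 did not. In that fit 0.149% of all genes were called higher and 0.0924% lower. On simulated counts that fit, DESeq2 and the main edgeR fit all gave more false calls than the nominal share. PPP1R15A (GADD34), which directs dephosphorylation of eIF2-alpha, was at 140.5 and 135.3 CPM in DMSO and at 333.0 and 396.6 CPM in HJ-23 (log2 difference 1.40, standard error 0.15, edgeR adjusted p = 0.0695). ASNS, the asparagine synthetase, was at 189.96 and 186.4 CPM in DMSO and at 443.1 and 446.7 CPM in HJ-23 (1.24, standard error 0.13, edgeR adjusted p = 0.0650). TRIB3, a pseudokinase that restrains ATF4, had 1.20 (standard error 0.18), and ATF4 itself 0.66 (standard error 0.13). DDIT3 (CHOP), the transcription factor that ATF4 and ATF6 both feed, was at 86.3 and 63.2 CPM in DMSO and at 100.8 and 189.1 CPM in HJ-23 (0.96, standard error 0.32, edgeR adjusted p = 0.362). ATF3 was at 95.5 and 45.3 CPM in DMSO and at 81.4 and 199.4 CPM in HJ-23, with overlap. EIF2AK3, which encodes PERK, had -0.27 (standard error 0.23).

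Among ER genes outside the 39, WFS1 and MOGS had the highest values. Over 111 other ER genes tested from the pathway lists, the medians by list ran from -0.03 (vesicle coat and retrieval) to 0.14 (other sensors and cleavage enzymes), and 0 passed with edgeR at an adjusted p below 0.05. WFS1 (ENSG00000109501), the ER membrane protein wolframin, was at 28.5 and 30.5 CPM in DMSO and at 68.4 and 82.4 CPM in HJ-23 (log2 difference 1.35, standard error 0.17, adjusted p = 0.0935 with edgeR and 4.27e-08 with DESeq2). With the GC and length correction WFS1 was at 1.14 and passed with edgeR (adjusted p = 0.0428). MOGS (ENSG00000115275), the glucosidase that trims the first glucose of N-glycans, was at 64.7 and 69.4 CPM in DMSO and at 129.0 and 152.3 CPM in HJ-23 (1.07, standard error 0.15, adjusted p = 0.124 with edgeR and 1.41e-05 with DESeq2). Both have high GC content, 61.4% and 61.3%. The limit given above on false calls with edgeR, DESeq2 and the corrected fit applies to these values too. ERO1A, the oxidase related to ERO1B that hypoxia induces, was at 281.97 and 259.9 CPM in DMSO and at 222.6 and 161.5 CPM in HJ-23, giving a log2 fold change of -0.50 (standard error 0.19, edgeR adjusted p = 0.390).

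Across the remaining lists the smallest p-values belonged to genes on either side of 0, though in some lists the genes named all lay on the same side. Counts by list at an unadjusted p below 0.05 stand against 6.77% of all genes higher and 5.25% lower. Among other disulfide and prolyl enzymes TXNDC16 had a log2 fold change of -0.59 and TMX2 0.35, with 1 of 23 higher and 2 lower at an unadjusted p below 0.05. Among other degradation genes the ubiquitin-conjugating enzymes UBE2J2 and UBE2J1 and the membrane protein AUP1 had 0.47, 0.45 and 0.39, with 3 of 20 higher and 0 lower. Of 19 translocation and signal peptidase genes 2 were higher, SEC11C (0.44) and SSR2 (0.36), and 2 were lower, SRP68 (-0.36) and SEC61G (-0.52), a further subunit of the SEC61 pore. The ER-phagy genes CALCOCO1 and RTN3 had -0.45 and -0.53, with 0 of 6 higher and 2 lower. In the vesicle coat list 0 of 16 were past an unadjusted p of 0.05 in either direction, with SEC16A at 0.24 and SEC24B at -0.41.

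**Figure D5:**
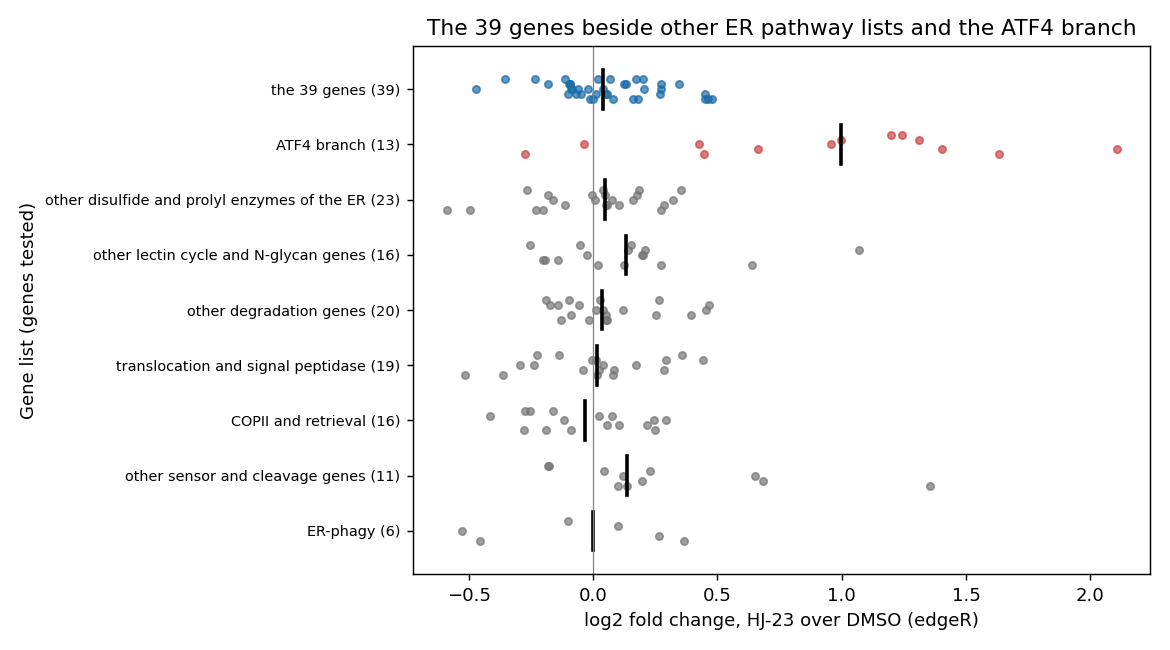
Log2 fold change of HJ-23 over DMSO (x axis) for the 39 genes (blue), the ATF4 branch (red) and the other ER lists (grey), 1 point per gene and a black bar at each median, with the number of genes tested in brackets. The 39 genes centre on 0.04 and the ATF4 branch on 0.995, while WFS1 at 1.35 and MOGS at 1.07 are the rightmost grey points.

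Defining epithelial genes were present in every library, EPCAM at 253.9 to 272.3 CPM and KRT8 at 1751 to 2489 CPM. The fibroblast and immune genes DCN, LUM, PTPRC and CD3E were at 0 in all 4, COL3A1 reached at most 0.174 CPM, COL1A1 and CD68 of the same lists were at 55.1 to 63.3 and 34.8 to 51.0 CPM, and of the endothelial genes PECAM1 and CDH5 stayed below the floor with VWF at 0.718 to 1.25 CPM.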

How the data were processed

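RNA-seq counts of 4 libraries, 2 from DMSO and 2 from HJ-23, were used; groups came from the sample titles. The authors deposited whole-number counts for 20263 Ensembl genes per library, without normalization as the values show. Per the submitters' processing notes FastQC, Trimmomatic, HISAT2, bedtools and RSEM were used, and tool versions, the strand setting and the build are not stated in the labels or files. Among counts of 1 to 8, 69.6% to 72.3% were even, so both mates of a pair appear counted for most fragments, and the floor for a count of 0 was taken as 6 counts (3 fragments).

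The genes and lists were chosen with earlier results of these data known. Genes given with every library were HSPA5, HSP90B1, XBP1, ERN1, ATF6, HERPUD1, DNAJB9, SDF2L1, CRELD2, HYOU1, PDIA4, SYVN1, EDEM1 and CREB3L2 and any other at an unadjusted p below 0.05 (SEC61A1 and UGGT1). From the other pathway lists the 3 smallest p-values were eligible, with DDIT3, ATF4, ATF3, TRIB3, PPP1R15A and EIF2AK3 of the ATF4 branch. Values of further genes were added for description. Symbols came from a gene name table (20148 genes) or GENCODE 29 (76), and GC content and length from GENCODE 29 (longest coding transcript), with all 39 genes matched.

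Counts were fitted with edgeR 4.0.16 in R 4.3.3 (TMM factors 0.983 to 1.03, filterByExpr, robust dispersions, legacy quasi-likelihood F-test, group only, 2 residual degrees of freedom) over 14062 genes, with Benjamini-Hochberg adjustment and a threshold of 0.05. Standard errors were derived from the log2 fold change and the square root of F, and 95% intervals use the t distribution on the total degrees of freedom. TPM used the GENCODE length. Alternatives were DESeq2 1.42.0, RLE scaling, no filter, a filter at a mean of 10 CPM, the replicate number as a block, a correction for GC content and length (spline trend per library), both together, and each library left out. The edgeR, DESeq2, replicate block and GC-corrected fits were tested on simulated counts, where false calls made up more than the nominal share in every run. No library repeated another: a chi-square of counts, per degree of freedom, reached 36.5 between DMSO libraries, 70.7 between HJ-23 libraries, and 57.4 to 138.9 across the groups.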

Additional observations from a re-analysis of the deposited data

How the results depend on the processing

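None of the 39 genes passed the adjusted threshold in either direction with edgeR or its 11 alternatives, while the counts over all genes moved widely. Against 8 higher and 4 lower, DESeq2 gave 161 and 150 (160 of the 161 among the 14062 genes), no filter 18 and 13, a mean of 10 CPM 0 and 0, the replicate block 136 and 158, the GC and length correction 21 and 13, and the block with that correction 0 and 0. Leaving out 1 library gave 112 and 161 (DMSO replicate 1), 94 and 63 (DMSO replicate 2), and 0 and 0 (either HJ-23 replicate). There the lone library of a group is assumed to vary like the other group. At an unadjusted p below 0.05, 3 higher and 1 lower of the 39 became 0 and 0 under the replicate block and without DMSO replicate 2, 1 and 1 without DMSO replicate 1, and 7 and 3 or 2 and 1 when HJ-23 replicate 1 or 2 was left out. Without HJ-23 replicate 1, where 17.9% and 7.69% of the 39 were past that p, so were 12.4% and 12.1% of all genes. Over the other 3 omissions the shares of all genes were 3.33% to 4.4% higher and 2.66% to 5.43% lower, and under the replicate block 4.82% and 5.35%. Leaving out 1 library moved the log2 fold change by over 1.5 times, or turned its sign, in 34 of the 39, the others being DNAJB11, HYOU1, SYVN1, SEC61A1 and UGGT1. A small fold change, such as that of EDEM1 or HSPA5, passes this bound easily, and the share over all genes was not computed. The replicate numbers are not shown to pair libraries: there are 2 pairs, and the gaps of the groups correlated at -0.18 over all genes. A block with crossed numbers, chosen after seeing the data, called 454 genes higher and 512 lower, 2 and 1 of them among the 39, or 63 and 59 with the GC and length correction and 0 among the 39.

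Of the 16 genes given with every library, 7 kept their sign in all 11 alternatives (HYOU1, CRELD2, HERPUD1, SEC61A1, ERN1, UGGT1 and SYVN1). The log2 fold change of HSPA5 turned to -0.0041 with DESeq2 and -0.0049 with RLE scaling, and leaving out single libraries took it from -0.1856 to 0.1448. The same omissions took HSP90B1 from -0.5325 to 0.033, XBP1 from -0.2217 to 0.3579, DNAJB9 from -0.0162 to 0.1595, ATF6 from -0.4157 to 0.1275, SDF2L1 from -0.4346 to 0.6122, PDIA4 from -0.0817 to 0.0894, EDEM1 from -0.1064 to 0.0873 and CREB3L2 from -1.391 to 1.688. With the GC and length correction ATF6 was at 0.115, SDF2L1 at -0.0896, PDIA4 at -0.0668, EDEM1 at 0.1432 and CREB3L2 at 0.1331. With the replicate block added to it they were at 0.115, -0.121, -0.0655, 0.146 and 0.2597. The replicate block alone turned EDEM1 to 0.0024 and CREB3L2 to 0.118, and no filter put EDEM1 at 3e-04. The cause of these reversals was not tested. With 2 libraries a group, the 95% intervals limit what can be said of small changes.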
